A study of Mus musculus with 12 samples.

Results

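The insulin-like growth factor (IGF) genes were followed across lung and heart of mice with and without Adam19, a membrane-bound metalloproteinase. The set holds 10 of the 55679 genes in the table: the ligands Igf1 and Igf2, the receptors Igf1r and Igf2r, and the binding proteins Igfbp2, Igfbp3, Igfbp4, Igfbp5, Igfbp6 and Igfbp7. Genes were chosen by name, with their levels in all 4 groups of mice and the size of their tissue and genotype differences already known. Those levels and differences are therefore a description and stand as evidence for nothing on their own. All 10 genes passed the filter on low values (the log2 value of 10 estimated counts or more in at least 3 libraries) in every comparison.

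RNA came from whole heart and whole lung of 6 young adult male 129S6/SvEvTac mice, giving 12 libraries in 4 groups of 3. Wild type (WT) mice carried intact Adam19. Knockout (KO) mice were homozygous for an allele in which a tdTomato reporter construct took the place of a pair of internal Adam19 exons, in every cell of the animal. The lung and the heart of a mouse were both sequenced, and no start of a mouse identifier was shared between genotypes, so what it marks cannot be told apart from the genotype. Adam19 values in lung were 9.14, 9.41 and 9.12 in WT and 4.44, 3.21 and 3.50 in KO mice (log2 difference -5.51, SE 0.33, limma adjusted p = 0.000186). In heart they were 9.17, 9.25 and 10.27 in WT and 6.67, 6.01 and 6.56 in KO mice (log2 difference -3.14, SE 0.31, limma adjusted p = 0.00558). Summed transcript estimates fell further in heart than these gene values, from 1155, 675 and 1235 estimated counts in WT to 12, 7 and 11 in KO mice, so the gene values of Adam19 are not a plain sum. Adam19 was thus far lower in every KO library, as the labels say.

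Libraries held 17674788 to 28043361 estimated counts in lung and 18392292 to 35862932 in heart. A single gene, Rn7s1 (the 7SL RNA of the signal recognition particle), took 2.2% to 33.7% of a lung library and 2.7% to 11.8% of a heart library. Tissue labels were checked against markers. The summed level of 6 cardiomyocyte markers was 20.78 to 21.06 (log2) in hearts and 13.33 to 14.62 in lungs, and that of 6 alveolar epithelium markers was 17.68 to 18.33 in lungs and 12.54 to 13.04 in hearts. In hearts the alveolar sum lay close to Hopx alone, at 12.52 to 12.95. Ager, another alveolar gene, was at 14.47 to 15.12 in lungs and 3.68 to 6.36 in hearts. No marker gene of the lists used here was listed at 0 in all libraries.

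IGF1 and IGF2 are small secreted hormones related to insulin. Both act through the tyrosine kinase receptor IGF1R, while IGF2R, which also sorts lysosomal enzymes, binds IGF2 and carries it to the lysosome. The secreted binding proteins hold the ligands in blood and tissue, where proteases cut them and release the ligand. IGFBP7 binds IGFs only weakly and is known as a protein of vessel walls.

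The genes lie on 7 chromosomes (GRCm39). Igf1 is at chr10:87693642-87772904 on the plus strand and Igf2 at chr7:142204503-142220694 on the minus strand. Igf1r is at chr7:67601518-67883416 on the plus strand and Igf2r at chr17:12901293-12988614 on the minus strand. Igfbp2 at chr1:72863606-72891634 (plus) and Igfbp5 at chr1:72897091-72914043 (minus) are neighbours that are transcribed towards each other. Igfbp3 at chr11:7156086-7164179 (minus) and Igfbp4 at chr11:98932064-98945218 (plus) share a chromosome with Adam19, at 38.8 and 52.9 Mb from it. Igfbp6 is at chr15:102052697-102057953 (plus) and Igfbp7 at chr5:77493130-77555931 (minus). The libraries keep the strand. Of the annotated genes on the opposite strand, Polr2b overlaps Igfbp7 (highest value 11.54), Airn overlaps Igf2r (7.39), Igf2os overlaps Igf2 (5.14) and Igf1os overlaps Igf1 (2.28). On the same strand as Igf2, the annotation also holds Gm49394 and Mir483, both listed at 0.

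The sequences that lie just before these genes are shown for the binding proteins. Each is the 200 bases before the first annotated base of the gene, 5′ to 3′ on the gene's own strand, read from GRCm39. Capitals mark matches on either strand to the GC box GGGCGG, the TATA box TATAAA or the E-box CACGTG. The sets are split by the signs of genotype differences, none of which passed the thresholds given below. The lung signs of Igfbp2, Igfbp6 and Igfbp7 were not kept on the counts per kilobase given below. The first set holds the binding proteins whose mean gene value was lower in KO lungs and higher in KO hearts: Igfbp2 (chr1:72863406-72863605, plus), Igfbp3 (chr11:7164180-7164379, minus), Igfbp6 (chr15:102052497-102052696, plus) and Igfbp7 (chr5:77555932-77556131, minus).
Igfbp2: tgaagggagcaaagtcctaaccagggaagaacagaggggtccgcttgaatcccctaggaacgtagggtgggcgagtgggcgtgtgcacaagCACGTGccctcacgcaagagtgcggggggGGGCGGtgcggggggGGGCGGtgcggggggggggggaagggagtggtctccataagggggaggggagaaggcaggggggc
Igfbp3: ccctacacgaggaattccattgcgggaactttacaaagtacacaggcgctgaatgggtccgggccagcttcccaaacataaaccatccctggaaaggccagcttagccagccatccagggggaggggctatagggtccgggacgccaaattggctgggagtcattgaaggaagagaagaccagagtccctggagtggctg
Igfbp6: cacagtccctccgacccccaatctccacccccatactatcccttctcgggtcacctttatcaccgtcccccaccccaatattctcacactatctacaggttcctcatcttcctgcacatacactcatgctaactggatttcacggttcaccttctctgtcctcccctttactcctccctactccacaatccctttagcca
Igfbp7: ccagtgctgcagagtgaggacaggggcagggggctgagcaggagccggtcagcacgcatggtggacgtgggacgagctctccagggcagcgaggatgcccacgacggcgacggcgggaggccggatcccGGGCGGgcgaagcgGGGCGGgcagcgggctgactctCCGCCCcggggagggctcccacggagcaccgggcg

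The second set holds the other binding proteins, Igfbp4 (chr11:98931864-98932063, plus) and Igfbp5 (chr1:72914044-72914243, minus), whose levels differed least between tissues in WT mice.
Igfbp4: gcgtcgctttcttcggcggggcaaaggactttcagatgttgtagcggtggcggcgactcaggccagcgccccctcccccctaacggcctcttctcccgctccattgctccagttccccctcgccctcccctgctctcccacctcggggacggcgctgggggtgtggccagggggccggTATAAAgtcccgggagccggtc
Igfbp5: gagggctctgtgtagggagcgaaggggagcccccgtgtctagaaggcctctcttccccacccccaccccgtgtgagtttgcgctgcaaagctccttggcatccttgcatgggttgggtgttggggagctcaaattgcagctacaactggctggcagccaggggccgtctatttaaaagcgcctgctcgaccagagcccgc

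The windows shared no one pattern of these letters. Igfbp7 held 3 GC boxes, at -71, -57 and -35 from the first base, and had a GC content of 75.5%. Igfbp2 held 2 GC boxes (-80 and -65) and an E-box (-109), with 68.5% GC. Igfbp3 (56.5% GC) and Igfbp6 (52.0%) held none of the motifs, so the set with opposite genotype signs was mixed. Igfbp4 (69.0%) held the only TATA box of the 10 genes, at -22, and Igfbp5 (61.5%) held no motif. Over 13315 windows of detected genes, 36.6% held the GC box, 6.8% the TATA box and 5.9% the E-box, and the median GC content was 55.0%. Of the 10 IGF genes, 4 held the GC box. These are matches of letters and not shown to be binding sites.

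Which IGF genes differ between lung and heart was asked first in WT mice, whose tissues the study did not itself compare. Values are log2 gene values, and differences are lung minus heart. The binding proteins Igfbp2, Igfbp6, Igfbp3 and Igfbp7 and the receptor Igf1r were higher in lung, while Igf1, Igf2 and Igf2r were higher in heart. Igfbp4 and Igfbp5 lay at like levels in both. In all, 5 of 10 genes were past the thresholds used here (limma adjusted p under 0.05, fold of at least 1.5 and a largest group mean of at least 6) on the lung side, where 29.7% of all genes tested were, and 3 of 10 on the heart side, where 20.5% were. Because these levels were known when the genes were chosen, nothing is read from the counts: 8 of 10 stood beside 50.2% of all genes, and 6 to 8 under the alternatives.

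**Figure D1:**
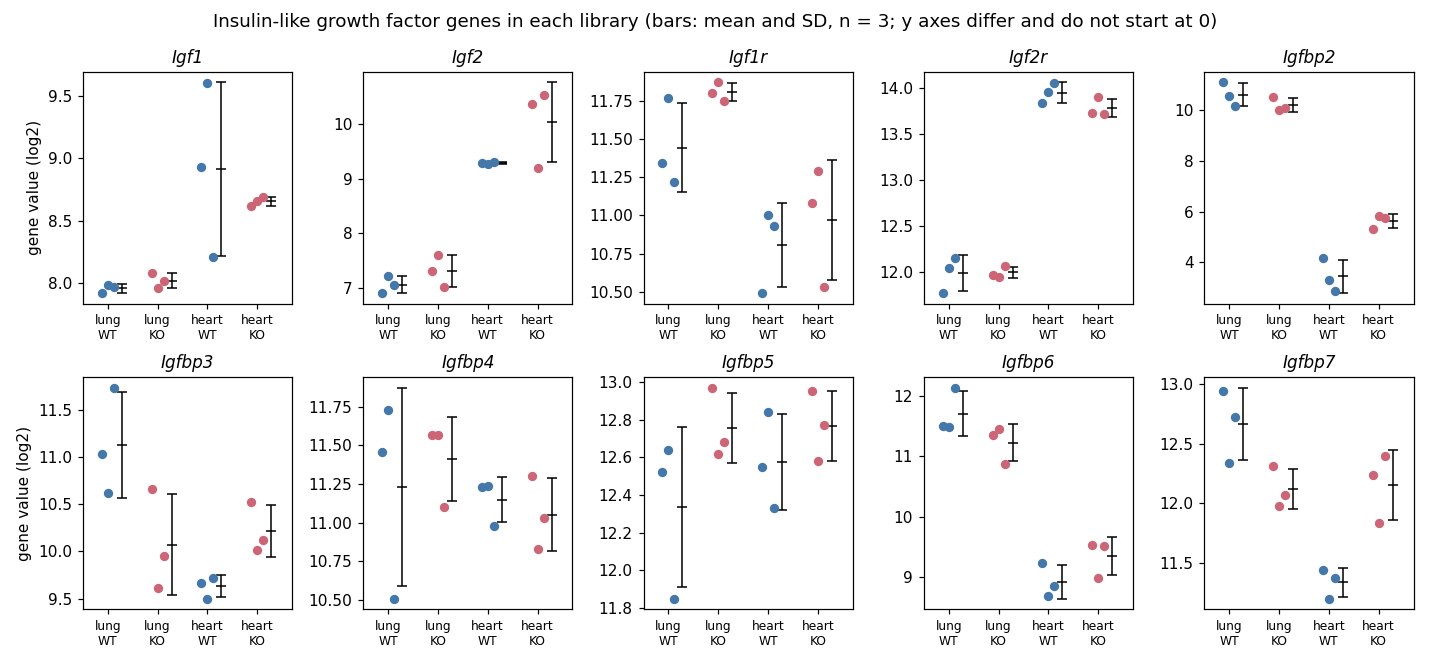
Log2 gene value of each IGF gene (y axis, its own scale in each panel) in the 12 libraries, by tissue and genotype (x axis); blue points are WT, red points are KO, and black bars give the mean and SD of 3 mice. No heart exceeds 5.84 for Igfbp2 and every lung lies far above that, and Igf2r and Igf2 are higher in every heart than in any lung.

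Igfbp2, a carrier of IGF2 and IGF1 in blood and tissue, had the widest tissue difference. WT lungs gave 11.10, 10.58 and 10.18 and WT hearts 4.16, 3.29 and 2.86 (log2 difference 7.18, SE 0.39, 95% interval 6.29 to 8.08). The hearts rest on only 15, 5 and 2 estimated counts, and Igfbp2 passed the filter here through the lungs. Igfbp6, a carrier that prefers IGF2, gave 11.50, 11.49 and 12.14 in WT lungs and 9.23, 8.69 and 8.85 in WT hearts (2.79, SE 0.23, 2.26 to 3.31). Lungs and hearts did not overlap for either gene.

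Igfbp3, the main IGF carrier of blood, gave 11.03, 10.62 and 11.74 in WT lungs and 9.67, 9.50 and 9.72 in WT hearts (1.5, SE 0.27). Igfbp7 gave 12.94, 12.34 and 12.72 in WT lungs and 11.44, 11.20 and 11.37 in WT hearts (1.33, SE 0.19). Every WT lung was above every WT heart for both. Groups that did not overlap with lung above heart made up 41.7% of all genes in WT mice, and those with heart above lung 27%.

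Among the ligands, Igf2 was the further apart. WT lungs gave 6.90, 7.22 and 7.06 and WT hearts 9.29, 9.27 and 9.31 (-2.23, SE 0.18). Igf1 gave 7.92, 7.99 and 7.97 in WT lungs and 8.93, 9.60 and 8.21 in WT hearts (-0.95, SE 0.33). The 3 lungs were nearly equal for Igf1, while the WT hearts spread over more than a log2 unit, and the Igf1 difference missed the thresholds under 8 of the alternatives tried.

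The receptors differed in opposite directions. Igf2r gave 11.77, 12.05 and 12.15 in WT lungs and 13.84, 13.96 and 14.06 in WT hearts (-1.97, SE 0.17). Igf1r gave 11.34, 11.77 and 11.22 in WT lungs and 10.49, 11 and 10.93 in WT hearts (0.64, SE 0.21). Heart was above lung in every WT mouse for Igf2r, and lung above heart for Igf1r, whose tissue ranges lie close together. The Igf1r difference missed the thresholds under 5 alternatives, at 0.48 without lung replicate 2, 0.48 without heart replicate 1, 0.45 with libraries centred, 0.30 with the trend with coding length removed and 0.64 without a variance trend.

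Igfbp4, which PAPP-A cuts to release IGFs, gave 11.46, 11.73 and 10.51 in WT lungs and 11.23, 11.24 and 10.98 in WT hearts (0.08, SE 0.29). Igfbp5, a matrix-bound binding protein, gave 12.52, 12.64 and 11.85 in WT lungs and 12.55, 12.84 and 12.33 in WT hearts (-0.23, SE 0.24). The tissues overlapped for both genes.

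In KO mice, the tissue differences of the ligands and receptors had the same signs as in WT mice, at -0.63 (SE 0.12) for Igf1, -2.72 (SE 0.34) for Igf2, 0.84 (SE 0.18) for Igf1r and -1.79 (SE 0.11) for Igf2r. Those of Igfbp2 and Igfbp6 were 4.57 (SE 0.21) and 1.89 (SE 0.20). Igfbp3 stood at -0.15 (95% interval -0.75 to 0.46) and Igfbp7 at -0.04 (-0.42 to 0.35), so that their lungs and hearts lay at like levels. Igfbp4 stood at 0.36 (SE 0.17) and Igfbp5 at -0.01 (SE 0.15). In KO mice 3 of 10 genes were past the thresholds on the lung side (30.9% of all genes) and 3 on the heart side (22.3%), or 6 of 10 beside 53.2%, and 4 to 6 under the alternatives, of which 4 ended the call of Igf1 and 1, with the trend with coding length removed, that of Igf1r (to 0.37). Non-overlapping groups with lung above heart made up 45.9% of all genes in KO mice, and with heart above lung 31.1%. In bulk tissue, fewer cells of a type and less RNA per cell cannot be told apart.

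**Figure D2:**
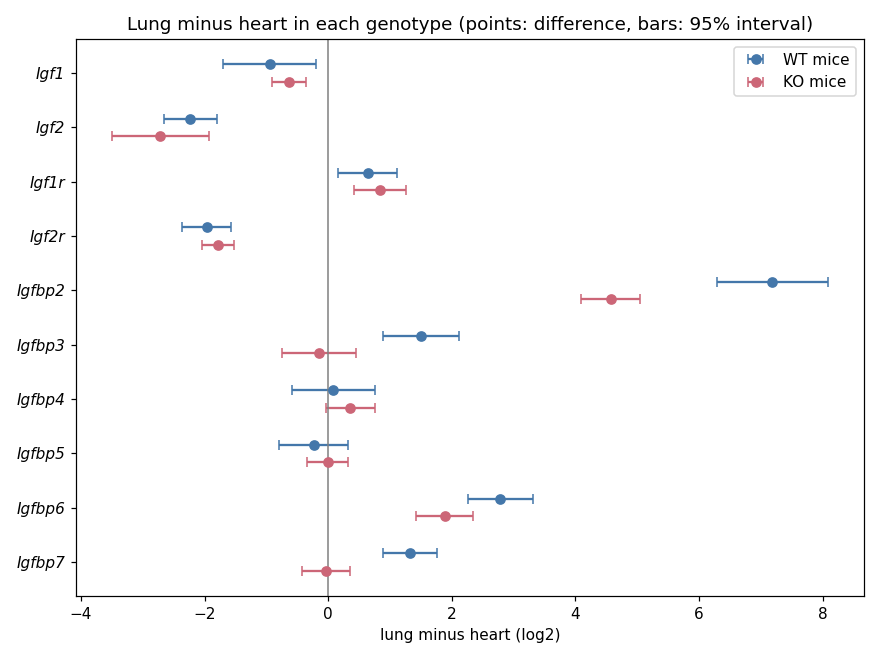
Lung minus heart difference in log2 gene value (x axis) for each IGF gene (y axis), in WT (blue) and KO (red) mice, 3 mice each; points are limma differences and bars their 95% intervals. Igfbp3 and Igfbp7 are at 1.5 and 1.33 in WT mice and at -0.15 and -0.04 in KO mice.

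Levels of different genes were compared per transcript length, within a tissue, in WT mice. Mean estimated counts per kilobase were scaled to a sum of 1000000 in each library. In lung they were 99.9 ± 65.0 (SD, n = 3) for Igfbp6, 43.1 ± 17.5 for Igfbp7, 39.4 ± 4.3 for Igfbp2, 33.8 ± 7.6 for Igfbp4, 31.6 ± 24.3 for Igfbp3, 27.8 ± 3.9 for Igfbp5, 15.7 ± 7.6 for Igf2r, 7.56 ± 2.24 for Igf1r, 1.70 ± 0.62 for Igf2 and 1.30 ± 0.57 for Igf1. WT lung replicate 3 stood apart, with 59.7 for Igfbp3 beside 18.4 and 16.8, so neighbours in the order from Igfbp7 to Igfbp5 lay within their spread. For Igfbp6 it gave 174.7 beside 56.6 and 68.5, where the log2 gene values were 12.14 beside 11.50 and 11.49. Rn7s1 took 33.7% and 29.6% of WT lung replicates 1 and 2 and 2.2% of replicate 3. Its part in these levels was not tested. In each WT lung both ligands and both receptors were below all 6 binding proteins. In heart the order was Igf2r (84.1 ± 8.9 on that scale, SD, n = 3), Igfbp5 (48.2 ± 7.5), Igfbp4 (46.5 ± 3.2), Igfbp7 (24.1 ± 2.3), Igfbp6 (18.9 ± 3.6), Igfbp3 (13.8 ± 1.2), Igf2 (11.7 ± 0.35), Igf1r (7.0 ± 1.35), Igf1 (3.65 ± 1.32) and Igfbp2 (0.372 ± 0.213). Igfbp5 and Igfbp4 lay within each other's spread in heart. Lengths are those of a later annotation, in which 8 of the 10 leading transcripts have a newer version. With the log2 gene values taken per kilobase of transcript, WT lung ranks were 1 for Igfbp6, 2 for Igfbp7, 3 for Igfbp2, 4 for Igfbp5, 5 for Igfbp3 and 6 for Igfbp4. With coding length in place of transcript length on those values, Igf2r moved from rank 1 to rank 4 in heart and Igfbp5 to rank 1, while Igfbp2 stayed at rank 10. In lung Igfbp6 then moved from rank 1 to rank 3, Igfbp7 from 2 to 1, Igfbp2 from 3 to 6 and Igfbp5 from 4 to 2.

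The study compared gene expression of KO with WT lungs, and here KO and WT mice were compared within lung and within heart. In lung, Igfbp3 and Igfbp7 had the lowest KO minus WT differences of the IGF genes, yet none of the 10 genes passed the thresholds. Across all genes tested, 11 of 16551 did (0.0665%). At an unadjusted p under 0.05 there were 2 of the 10 IGF genes and 981 of all genes (5.93%). The genes were chosen with these differences known, so nothing is read from that count.

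Igfbp3 in lung gave 11.03, 10.62 and 11.74 in WT and 10.66, 9.61 and 9.95 in KO mice (log2 difference -1.06, SE 0.33, 95% interval -1.81 to -0.30, limma adjusted p = 0.806). KO replicate 1 lay just above the lowest WT lung. Igfbp7 gave 12.94, 12.34 and 12.72 in WT and 12.31, 11.98 and 12.07 in KO lungs (-0.54, SE 0.19, -0.97 to -0.12, limma adjusted p = 0.806). Igfbp6 gave 11.50, 11.49 and 12.14 in WT and 11.35, 11.45 and 10.88 in KO lungs (-0.48, SE 0.23, limma adjusted p = 0.836). For Igfbp7 and Igfbp6 every KO lung was below every WT lung, by a small gap, and groups apart in that direction made up 6.4% of all genes. On the counts per kilobase used above, means went the other way, from 43.1 in WT to 52.3 in KO lungs for Igfbp7. Igfbp6 went from 99.9 to 124.3 and Igfbp2 from 39.4 to 55.4, while Igfbp3 went from 31.6 to 24.2. This rise was not particular to them, as every IGF gene but Igfbp3 had a higher mean in KO lungs on that scale. Igfbp5 went from 27.8 to 68.8, and Igf2r from 15.7 to 27.1 though its log2 gene values differed by 0.00. Rn7s1 took 33.7%, 29.6% and 2.2% of WT and 10.4%, 3.3% and 20.8% of KO lungs, and its part was not tested.

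The other lung values overlapped or nearly met. Igfbp2 gave 11.10, 10.58 and 10.18 in WT and 10.54, 10 and 10.09 in KO lungs (-0.41, SE 0.25). Its difference was -0.17 without WT lung replicate 1 and -0.63 without WT lung replicate 3. Igf1r gave 11.34, 11.77 and 11.22 in WT and 11.80, 11.87 and 11.75 in KO lungs (0.36, SE 0.17), with KO replicate 3 just below the highest WT lung. Igfbp5 gave 12.52, 12.64 and 11.85 in WT and 12.97, 12.62 and 12.68 in KO lungs (0.42, SE 0.22). No IGF gene had every KO lung above every WT lung, where 6.41% of all genes did. Igf1 stood at 0.06 (SE 0.16), Igf2 at 0.25 (SE 0.22), Igf2r at 0.00 (SE 0.15) and Igfbp4 at 0.18 (SE 0.30). With transcripts summed, Igf2 stood at 0.05 and Igfbp4 at -0.02. Limma adjusted p-values for these 7 genes lay between 0.836 and 0.996.

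In heart, Igfbp2, Igfbp7 and Igfbp3 had higher values in all 3 KO mice than in any WT mouse. None of the 10 IGF genes passed the thresholds, where 13 of 15303 genes did (0.085%). At an unadjusted p under 0.05 there were 4 of the 10, Igfbp2, Igfbp3, Igfbp7 and Igf2, and 1141 of all genes (7.46%). Igfbp2 entered this count through a filter that its KO hearts decided, and nothing is read from a count of genes chosen with these differences known. Groups apart with KO above WT made up 7.82% of all genes, and with KO below WT 5.23%, a group that held no IGF gene.

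Igfbp2 gave 4.16, 3.29 and 2.86 in WT hearts and 5.33, 5.84 and 5.75 in KO hearts (log2 difference 2.21, SE 0.42, 95% interval 1.25 to 3.16, or 4.61-fold, limma adjusted p = 0.224). These rest on 15, 5 and 2 estimated counts in WT and 44, 61 and 58 in KO hearts, and the KO mean of 5.64 was under the level of 6 that the thresholds ask for. Sftpc, the surfactant gene of lung alveoli, was read at 5.51, 4.78 and 7.71 in WT and 6.90, 7.53 and 4.80 in KO hearts. Cyp2f2, a gene of airway epithelium, was read at 3.69, 2.92 and 6.03 in WT and 9.01, 5.56 and 2.15 in KO hearts. The summed level of 6 alveolar markers was 12.54 to 12.94 in WT and 12.71 to 13.04 in KO hearts, and that of 4 airway markers 5.17 to 8.69 in WT and 5.33 to 11.01 in KO hearts. That alveolar sum lay close to Hopx alone, at 12.61, 12.52 and 12.82 in WT and 12.95, 12.61 and 12.92 in KO hearts. Ager, another alveolar gene, gave 4.17, 3.68 and 6.36 in WT and 5.83, 6.03 and 3.79 in KO hearts. The part of lung RNA in the Igfbp2 values was not tested.

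Igfbp7 gave 11.44, 11.20 and 11.37 in WT hearts and 12.24, 11.83 and 12.40 in KO hearts (0.82, SE 0.16, 0.45 to 1.19, or 1.76-fold, limma adjusted p = 0.270). Igfbp3 gave 9.67, 9.50 and 9.72 in WT and 10.53, 10.01 and 10.12 in KO hearts (0.59, SE 0.16, 0.22 to 0.96, or 1.5-fold, limma adjusted p = 0.481). The gap between the groups was 0.39 for Igfbp7 and 0.29 for Igfbp3. Igfbp6 gave 9.23, 8.69 and 8.85 in WT and 9.54, 8.98 and 9.51 in KO hearts (0.42, SE 0.20, limma adjusted p = 0.693), with overlap.

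Igf2 was high in 2 of 3 KO hearts. It gave 9.29, 9.27 and 9.31 in WT and 10.36, 9.19 and 10.54 in KO hearts (0.74, SE 0.31, 95% interval 0.05 to 1.43, limma adjusted p = 0.647), so KO replicate 2 lay below every WT heart. Without that library the difference was 1.16 and passed (limma adjusted p = 0.0294). The other genes overlapped between genotypes or nearly so. Igf1 stood at -0.25 (SE 0.30), Igf1r at 0.16 (SE 0.22), Igf2r at -0.17 (SE 0.13), Igfbp4 at -0.10 (SE 0.15) and Igfbp5 at 0.19 (SE 0.16), with limma adjusted p-values of 0.774 to 0.888.

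**Figure D3:**
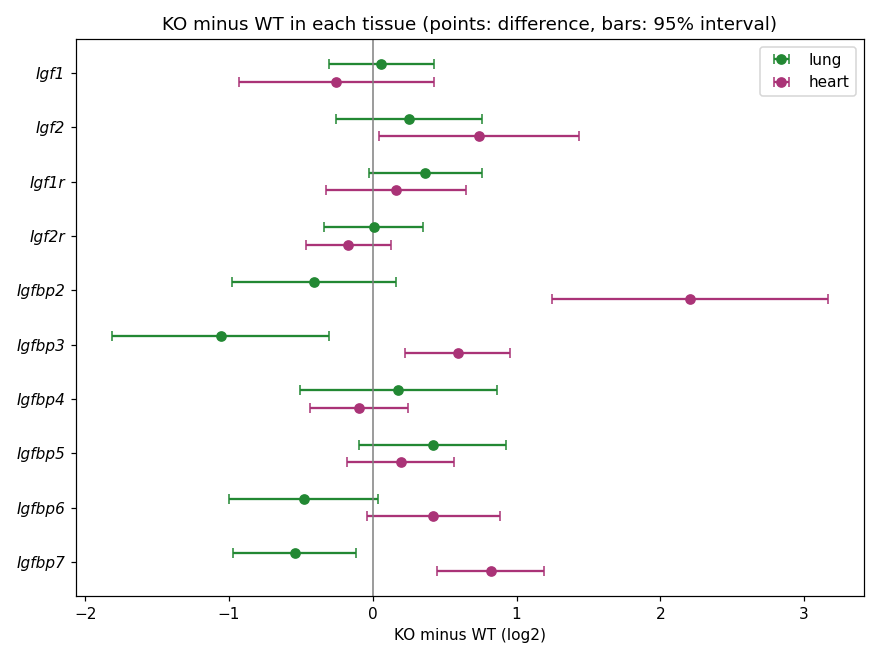
KO minus WT difference in log2 gene value (x axis) for each IGF gene (y axis) in lung (green) and heart (purple), 3 mice per genotype; points are limma differences and bars their 95% intervals, not adjusted over genes. Igfbp2, Igfbp3, Igfbp6 and Igfbp7 are below 0 in lung and above 0 in heart.

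Whether the genotype difference itself differed between the tissues was tested over all 12 libraries as lung minus heart of the KO minus WT differences. It was -2.61 (SE 0.46, 95% interval -3.62 to -1.61) for Igfbp2, -1.65 (SE 0.41, -2.54 to -0.76) for Igfbp3, -1.36 (SE 0.26, -1.93 to -0.80) for Igfbp7 and -0.90 (SE 0.33, -1.61 to -0.19) for Igfbp6. Their limma adjusted p-values were 0.205, 0.479, 0.246 and 0.592. None of the 10 genes passed, where 1 of 17666 genes did (0.00566%), and these 4 were those at an unadjusted p under 0.05, where 7.88% of all genes were. The genes were chosen with these differences known, so nothing is read from that count. Igfbp2 passed the filter here through its lungs and KO hearts, while its WT hearts rest on 15, 5 and 2 estimated counts. Without WT heart replicate 1, Igfbp2 passed at -2.98 (limma adjusted p = 0.0378). The ligands, the receptors, Igfbp4 and Igfbp5 lay between -0.49 and 0.31. No difference was significant after adjustment. On the gene values, Igfbp7 alone of the 10 had every KO lung below the WT lungs and every KO heart above the WT hearts, as 97 of the 14330 genes tested in both tissues had (0.677%). On the counts per kilobase its lungs overlapped, at 36.9, 29.5 and 62.9 in WT and 57.3, 64.4 and 35.1 in KO mice. On that scale every IGF gene but Igfbp3 had a higher mean in KO lungs.

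Some marker sums differed between genotypes in the same libraries and others overlapped. Summed alveolar epithelium markers were 18.17 to 18.33 (log2) in WT and 17.68 to 17.99 in KO lungs. Such a sum follows its most abundant genes, and the alveolar markers did not move together. Sftpc gave 17.02, 16.94 and 17.28 in WT and 16.58, 16.32 and 16.32 in KO lungs, and Hopx was also lower in every KO lung. Sftpa1, Sftpb, Ager and Rtkn2 overlapped between genotypes. The 6 smooth muscle and pericyte markers were 12.54 to 12.94 in WT and 13.02 to 13.25 in KO lungs. The 4 airway epithelium markers were 17.6 to 18.33 in WT and 18.35 to 18.61 in KO lungs, and 5 mesothelium markers 11.41 to 11.72 in WT and 11.75 to 11.96 in KO lungs. In heart the smooth muscle and pericyte markers were 13.99 to 14.18 in WT and 14.29 to 14.45 in KO mice, while 6 fibroblast markers overlapped, at 14.46 to 14.79 in WT and 14.76 to 14.93 in KO mice. The 6 endothelial markers overlapped in both tissues, at 15.73 to 15.82 in WT and 15.68 to 15.85 in KO lungs and at 13.96 to 14.14 in WT and 14.06 to 14.12 in KO hearts. In lung, fibroblast markers (14.06 to 14.36 in WT and 14.28 to 14.50 in KO mice) and 6 macrophage markers (12.84 to 12.93 and 12.77 to 12.94) overlapped as well. Differences also moved with gene length. Among genes with a mean of at least 6, those with a coding length under 1000 bases had a median KO minus WT difference of -0.094 in lung (63.0% lower) and 0.074 in heart (64.0% higher), while those of 2000 bases or more had 0.064 and -0.044. Coding length was under 1000 bases for both ligands and all 6 binding proteins and was 4107 for Igf1r and 7449 for Igf2r. With the trend removed, Igfbp3 and Igfbp7 stood at -1.01 and -0.50 in lung, and Igfbp2, Igfbp7 and Igfbp3 at 2.15, 0.75 and 0.53 in heart. The part of cell makeup in these results was not tested.

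The transcript estimates, from which the gene values derive, were read for Igf2 in heart because its gene values varied there. Transcript ENSMUST00000097936.9, which has no entry in the later annotation used here, scaled between libraries, stood at 141.2, 0.0 and 163.6 estimated counts in WT hearts and at 722.7, 104.1 and 680.5 in KO hearts. Transcript ENSMUST00000000033.12, the leading one over all libraries, stood at 291.3, 626.9 and 360.6 in WT and 291.4, 263.6 and 369.7 in KO hearts. The KO hearts with high Igf2 were those with high ENSMUST00000097936.9, while the leading transcript did not exceed its WT range there. ENSMUST00000163148.3 was high in the same KO hearts, at 162.9, 95.5 and 225.3, beside 112.1, 65.1 and 87.9 in WT hearts. ENSMUST00000105936.8 was higher in every KO heart, at 89.5, 112.5 and 85.2, than in the WT hearts, at 35.7, 37.6 and 10.6. With 3 against 3 mice the smallest exact two-sided p is 0.1. These transcripts were not tested, by an exact test or by limma.

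**Figure D4:**
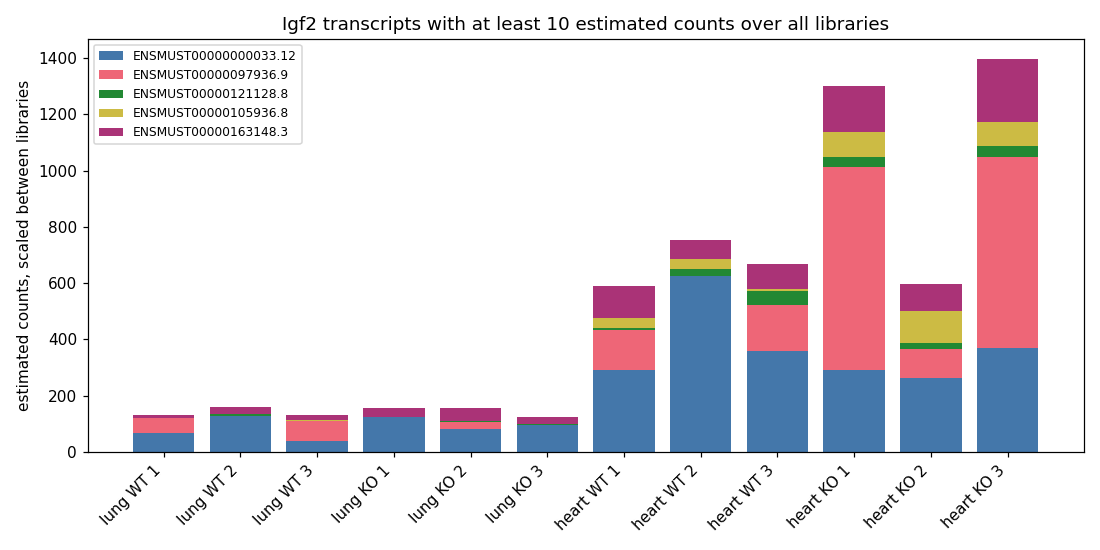
Stacked bars of the estimated counts of each Igf2 transcript (y axis, scaled by the constant of each library) in the 12 libraries (x axis: tissue, genotype and replicate). Heart KO replicates 1 and 3 carry 722.7 and 680.5 of ENSMUST00000097936.9, against 163.6 or less in any other library.

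For most genes a single transcript held nearly all estimated counts in both tissues. The leading transcript's share was between 5% and 95% on average for 3 genes, whatever its difference between tissues, and was tested for these with an exact two-sided sign-flip permutation test over the 6 mice. Igfbp4's leading transcript held 85.2% on average in lung and 80.3% in heart and was higher in lung in 6 of 6 mice (4.83 points, SD 4.91, exact p = 0.031, the smallest possible, adjusted 0.0938). Among protein-coding transcripts alone the Igfbp4 difference was -0.04 points. Igf2's leading transcript held 61.1% in lung and 46.6% in heart (exact p = 0.344, adjusted 0.5), and Igfbp2's 98.4% and 69.8% (exact p = 0.5, adjusted 0.5), on the few heart counts given above.

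Members of the family varied together to different degrees from mouse to mouse. Within groups, over the 12 libraries' deviations from their group means, Igfbp4 and Igfbp5 had a Pearson r of 0.864, the highest of the 45 pairs, and Igf1r and Igfbp7 one of -0.776, the lowest. These share their library, depth and mouse and are a description. Over all libraries, the patterns most like those of the ligands were Zfp9, Maob and Adamts6 for Igf1 (r 0.954, 0.947 and 0.930) and Fdft1, Pdlim4 and Stum for Igf2 (0.983, 0.980 and 0.979). For the receptors they were Terf2, Mboat7 and Jade2 for Igf1r (0.967, 0.961 and 0.953) and Usp28, Kcnip2 and Fyco1 for Igf2r (0.998, 0.997 and 0.997). Those of Igfbp2 were Mpv17l, Csrp1 and Olfml3 (0.997, 0.992 and 0.990) and those of Igfbp3 Tra2a, 1810037I17Rik and Scamp1 (0.933, 0.918 and 0.910). Igfbp4 was most like Champ1, Natd1 and Numbl (0.916, 0.895 and 0.890), and Igfbp5 most like Aebp1, Gpx3 and Tgfb3 (0.932, 0.914 and 0.896). Igfbp6 was most like Sec61b, M6pr and Cyth4 (0.994, 0.993 and 0.993), and Igfbp7 most like Sft2d3, 5031425E22Rik and Fam181b (0.983, 0.956 and 0.940). They are ranked among 12182 genes by Pearson r over 12 libraries, which the tissue split dominates.

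A list of 53 further genes of the pathway was read beside them: proteases that cut binding proteins and their inhibitors, carriers, the growth hormone axis, adaptors and kinases below the receptor, Igf2 mRNA binding proteins and imprinted genes. None passed the thresholds between genotypes in lung or heart, with 43 tested in each. In lung 6 of them were at an unadjusted p under 0.05, beside 5.93% of all genes, and in heart 8, beside 7.46%. Their median KO minus WT difference was 0.03 in lung and -0.04 in heart, beside 0.01 and 0.03 over all genes. Between tissues, 35 of 45 passed in WT mice, 15 higher in lung and 20 in heart, and 34 of 45 in KO mice, 14 higher in lung and 20 in heart. Of all genes 50.2% passed in WT mice (29.7% on the lung side and 20.5% on the heart side) and 53.2% in KO mice (30.9% and 22.3%). The median lung minus heart difference was -0.29 in WT and -0.00 in KO mice, beside 0.30 and 0.28 over all genes. This list was drawn up with earlier results known, so nothing is read from these counts. The tissue p-values of the genes named below are likewise a description and stand as evidence for nothing on their own.

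Of the genes higher in lung, Igf2bp1, an RNA-binding protein that binds Igf2 mRNA, gave 6.84, 6.83 and 6.21 in WT lungs. Its WT hearts gave 3.21, 0.0 and 0.0 (log2 difference 5.55, SE 0.84), and the difference stood at 4.38 in KO mice. Igf2bp1 passed the filter on low values through the lungs. Adam28, a metalloproteinase, was at 6.26 to 7.76 in WT lungs and listed at 0 in the WT hearts. In KO hearts it was at 2.48, 1.41 and 0.71. Cd93 followed in WT mice (1.58, limma adjusted p = 0.000104, and 2.03 in KO mice). Igf2bp2, a relative of Igf2bp1, followed in KO mice (2.33, and 1.39 in WT mice).

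Of the genes higher in heart, Igfals, which encodes the acid-labile subunit of the blood IGF complex, gave 3.48, 3.25 and 0.86 in WT lungs. Its WT hearts gave 7.92, 7.33 and 8.24 (-5.30, SE 0.68), and the difference was -3.82 in KO mice. The hearts decided that Igfals passed the filter on low values. Cish, a suppressor of cytokine signalling that growth hormone induces, stood at -3.20 in WT mice (limma adjusted p = 9.28e-06) and -2.20 in KO mice. Grb14, an adaptor that dampens insulin receptor signalling, stood at -2.77 in WT (limma adjusted p = 1.05e-05) and -2.98 in KO mice. In KO mice Stc2, an inhibitor of PAPP-A, stood at -3.92 (limma adjusted p = 7.46e-07), and in WT mice at -2.75. H19, the imprinted non-coding RNA beside Igf2, stood at -2.06 in WT (limma adjusted p = 0.0246) and -3.03 in KO mice (0.000263). Insr, the insulin receptor, stood at -1.71 in WT (limma adjusted p = 9.37e-05) and -1.09 in KO mice (0.000653). Igfbp1, a binding protein made mainly by liver, was listed at 0 in 11 of 12 libraries and at 0.74 in the other.

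H19 lies beside Igf2 and is expressed from the other parental copy. H19 gave 8.75, 8.88 and 8.32 in WT hearts and 9.65, 8.21 and 9.86 in KO hearts. The KO hearts with high Igf2 were those with high H19, and KO replicate 2 was the lowest heart for both. The KO minus WT difference of H19 was 0.59 in heart and -0.37 in lung, and neither passed.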

How the data were processed

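RNA from whole lung and heart of 6 mice was sequenced as strand-specific libraries of total RNA, and the authors estimated transcript abundance with Salmon against GENCODE mouse models. The submitters' processing notes name cutadapt, STAR, Salmon and limma 3.42.2. The deposited gene and transcript values are on a log2 scale with 1 added to estimated counts before the log. For genes with 1 transcript, 95.7% to 98.8% of gene values in a library differ from the transcript value by 1 constant to within 0.01 (-0.63 to 0.80 between libraries). Genes with several transcripts depart from it, and the source of the constant and how transcripts were summed to genes are not given in the sources used here.

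The deposited gene values were fitted with limma 3.58.1 (R 4.3.3; lmFit and eBayes with a variance trend), 6 libraries per comparison and all 12 for the difference between tissues, after keeping genes at the log2 value of 10 estimated counts or more in at least 3 libraries. Calls needed a Benjamini-Hochberg adjusted p under 0.05 over all genes tested, a fold of at least 1.5 and a largest group mean of at least 6, the study's thresholds. With 3 mice per group, p-values rest on the spread between those mice. The fit was tested on simulated data with 200 genes shifted, in equal parts by 1 and by 2 log2 units. Between genotypes it recovered 117 in lung and 154 in heart, with 4 and 2 false calls. Of those shifted by 1 log2 unit it recovered 39 in lung and 60 in heart. Differences of that size can therefore be missed. Alternatives were other filters, summed transcripts with pseudocounts of 1 and 5, limma-voom, no variance trend, centred libraries, 1 model for all libraries, mouse as a block, leaving out each library and, chosen after seeing the data, removing a trend with coding length.

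Lung and heart carrying the same mouse identifier come from the same animal. Their deviations from group means correlated little over 17666 genes, at r = 0.049, 0.136 and -0.024 in WT and 0.020, -0.068 and -0.036 in KO mice.

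The IGF genes, the pathway list and the markers were chosen with earlier results of these data known. Named genes were all 10 IGF genes, Adam19, the pathway genes past the thresholds between genotypes, the 3 highest and 3 lowest pathway genes past the thresholds between tissues with Insr, Igfbp1, Igfals and H19, the 3 genes most correlated with each IGF gene and the overlapping genes. Pappa, Pappa2, Stc1, Cdkn1c, Sftpc, Sftpa1, Sftpb, Rtkn2, Cyp2f2, Hopx, Ager and Rn7s1 fall outside this rule and were named after their values were seen. Coordinates and lengths are those of GENCODE vM39 on GRCm39, matched by gene identifier without version, and sequences were read from that genome. Igfbp2 in heart rested on 2 to 61 estimated counts.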

Additional observations from a re-analysis of the deposited data

Results flagged for a closer look

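Igfbp7 was the gene of the 10 whose KO lungs were all below the WT lungs and whose KO hearts were all above the WT hearts on the gene values. On the counts per kilobase its lungs overlapped between genotypes, a scale on which every IGF gene but Igfbp3 had a higher mean in KO lungs. Of the 14330 genes tested in both tissues, 97 (0.677%) had that pattern, and of the pathway list Cdkn1c, an imprinted cell cycle inhibitor, did (-0.66 in lung and 0.65 in heart, with a difference between tissues of -1.31 and a limma adjusted p of 0.502). For Igfbp7, the difference between the tissues' KO minus WT differences was -1.36 on the log2 scale (SE 0.26), with a limma adjusted p of 0.246, so it was not significant after adjustment.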

How the results depend on the processing

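No result changed direction while past the thresholds under any alternative that was run. All genes past the thresholds between genotypes numbered 11 in lung and 13 in heart, but 1 and 7 when the filter on low values was asked of every library, and 5 and 6 with the trend with coding length removed, a setting that also leaves out genes without a coding length (14506 and 13590 genes tested in place of 16551 and 15303); leaving out each library gave 10 to 14 in lung and 10 to 21 in heart, the highest without heart KO replicate 2. The difference of the KO effect between tissues had 1 such gene, 0 with libraries centred on their median, and 0 to 5 when a library was left out. IGF genes past the thresholds numbered 0 to 1 in heart (Igf2 without heart KO replicate 2) and 0 to 1 in the difference between tissues (Igfbp2 without heart WT replicate 1); the cause was not tested. With the mouse as a replicate block, 8295 and 8904 genes passed between tissues in WT and KO mice, beside 8358 and 8934 without it, and the pairing changed no IGF gene's call. Between WT tissues, the setting with the length trend removed (14553 genes in place of 16636) gave another split of calls, from 4945 higher and 3413 lower in lung to 3816 and 4070, and between KO tissues from 5190 and 3744 to 4005 and 4231. Centring the libraries moved the median lung minus heart difference of all genes from 0.30 to 0.11 in WT and from 0.28 to 0.13 in KO mice; Igf1r then stood at 0.45 in WT mice, and at 0.30 with the length trend removed, and missed the thresholds in both. KO minus WT in heart stayed positive for Igfbp2 under the alternatives that kept it (the filter on every library removed it), at 1.79 to 2.57 (limma adjusted p 0.0195 to 0.795, the lowest with all 12 libraries in 1 model, its mean still under 6), and under every alternative run for Igfbp7, at 0.70 to 0.98 (0.0756 to 0.956).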

Other observations

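Some pathway genes, chosen after their values were seen, stood apart between genotypes without passing the thresholds. Pappa2, a protease that cuts IGFBP3 and IGFBP5, gave 5.21, 6.01 and 4.68 in WT lungs and 6.94, 6.42 and 6.54 in KO lungs. Pappa, which cuts IGFBP4, gave 6.66, 7.05 and 6.49 in WT lungs and 7.20, 7.93 and 7.51 in KO lungs. Stc2, an inhibitor of PAPP-A, gave 5.85, 6.65 and 5.59 in WT lungs and 5.18, 5.24 and 4.85 in KO lungs. In heart, Cish gave 11.10, 10.97 and 11.68 in WT and 10.26, 10.28 and 10.29 in KO mice, and Grb14 gave 12.23, 12.31 and 12.32 in WT and 11.86, 11.97 and 11.97 in KO mice. Grb14 was also lower in KO lungs, at 9.41, 9.19 and 9.96 in WT and 9.02, 8.82 and 9.03 in KO mice. Groups did not overlap for these genes in the tissues named. In the other tissue they overlapped for Pappa2, Pappa and Stc2 (heart, -0.06, 0.05 and 0.23) and for Cish (lung, 0.02). Of the 43 pathway genes tested, 6 lay apart with KO higher and 4 with KO lower in lung, beside 6.41% and 6.4% of all genes, and 5 and 4 in heart, beside 7.82% and 5.23%. Stc1, a relative of Stc2, gave 5.60, 6.67 and 4.96 in WT and 5.90, 6.59 and 6.53 in KO lungs, with overlap.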
